A study of Homo sapiens with 12 samples.

Results

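The Eph receptors and ephrins described here were 10 human genes, the receptors EPHA1, EPHA2, EPHA4, EPHB2, EPHB3 and EPHB4 and the ligands EFNA1, EFNA4, EFNB1 and EFNB2. They were taken by gene name from the authors' gene tables and followed by gene ID, and all 10 had a row among the 60617 genes measured. They make up 10 of the 22 human Eph receptor and ephrin genes, and they were chosen on results of these same libraries, so their values in both comparisons are a description and carry no test. The study asked what BTLA, an inhibitory receptor best known from lymphocytes, does in tumor cells, and sequenced RNA of A549, an established line of human lung adenocarcinoma cells. In the knockdown, A549 cells infected with a lentivirus carrying an shRNA against BTLA (shBTLA, 3 libraries) were set against cells infected with the empty pSIH-H1-Puro vector (shControl, 3 libraries), both after puromycin selection. The study's methods describe this infection, whereas the labels speak of transfected shRNA plasmids. In the sort, A549 cells with low surface BTLA (BTLAlow, 3 libraries) were set against those with high surface BTLA (BTLAhigh, 3 libraries), both stained with the same antibody, after which the cells were also cultured. How long after sorting the RNA was taken is not given in the sources used here. Which shRNA was sequenced is not named. The study's figure captions speak of 3 independent experiments, but whether this covers the sequenced libraries is unclear. The libraries of one group are therefore not known to come from separate cultures. The spread behind each p-value is that between libraries and may be technical.

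Eph receptors form the largest family of receptor tyrosine kinases, and their ligands, the ephrins, are themselves bound to the cell surface. Ephrin-A ligands are tethered by a lipid anchor and mostly bind EphA receptors, whereas ephrin-B ligands span the membrane and mostly bind EphB receptors. Contact between cells therefore signals both into the cell with the receptor and back into the cell with the ephrin, and the pathway is best known for the repulsion, sorting and boundary formation of cells in epithelia, vessels and the nervous system.

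The promoters of EPHB2, EPHB3 and EPHA2 are shown first, because these were the members called in at least one comparison. Each run is 300 bases of GRCh38.p14 from RefSeq, written 5′ to 3′ on the strand of the gene, and covers its annotated start. EPHB2 lies at chr1:22710588-22710887 on the plus strand, EPHB3 at chr3:184561535-184561834 on the plus strand and EPHA2 at chr1:16156020-16156319 on the minus strand. Capitals mark the GC box GGGCGG or its reverse complement CCGCCC and, in EPHB2, the E-box CAGGTG that ZEB and SNAI repressors can bind.
EPHB2: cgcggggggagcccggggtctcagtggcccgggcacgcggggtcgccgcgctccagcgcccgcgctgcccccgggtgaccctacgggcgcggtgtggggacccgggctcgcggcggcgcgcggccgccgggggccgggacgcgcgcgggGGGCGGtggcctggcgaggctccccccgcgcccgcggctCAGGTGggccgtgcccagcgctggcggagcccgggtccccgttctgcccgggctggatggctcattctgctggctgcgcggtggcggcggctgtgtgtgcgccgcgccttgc
EPHB3: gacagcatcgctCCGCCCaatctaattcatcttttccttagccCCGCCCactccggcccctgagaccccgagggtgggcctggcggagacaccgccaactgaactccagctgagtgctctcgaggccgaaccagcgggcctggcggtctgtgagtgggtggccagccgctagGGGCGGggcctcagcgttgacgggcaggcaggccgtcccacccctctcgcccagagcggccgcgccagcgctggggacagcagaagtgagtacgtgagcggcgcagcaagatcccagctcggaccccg
EPHA2: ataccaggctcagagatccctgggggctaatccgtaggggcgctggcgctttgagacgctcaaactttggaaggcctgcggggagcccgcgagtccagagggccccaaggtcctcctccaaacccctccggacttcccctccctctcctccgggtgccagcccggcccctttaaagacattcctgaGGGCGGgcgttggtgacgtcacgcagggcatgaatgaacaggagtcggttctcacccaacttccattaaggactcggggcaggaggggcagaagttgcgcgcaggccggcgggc
The 3 runs were rich in G and C, with 83% in EPHB2, 69% in EPHB3 and 64.3% in EPHA2, against a median of 58.7% over 35116 RefSeq promoters of the same length. All 10 members matched the RefSeq table by symbol, and all 10 held a GC box, which 45% of the 35116 promoters did. The CAGGTG motif or its reverse complement CACCTG was found for EPHB2, EPHA1 and EFNB2 and in 20.6% of promoters. The TATA box TATAAA, searched on both strands, was found for EFNB2 alone among the members and in 11.5% of promoters. The TCF/LEF motif CTTTGAT (2.62% of promoters) and the AP-1 motif TGANTCA (7.71%) were in no window of the 10 members. EPHA4 and EPHB2 each had a further window, and a member is named for a match in any of its windows, whereas the shares are over promoters. No matches shared letters in the printed runs, and a match describes the letters of a window, not a bound site.

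Each knockdown library held 29130357 to 41748767 reads assigned to genes, and each sort library 29383169 to 42488067. A gene's level is given as RPM, its reads per 1000000 reads of the library, and a library without reads of a gene could still hold it at up to 0.0706 to 0.103 RPM, the value of 3 reads, counting error alone being covered. BTLA itself had 0 reads in all 3 shBTLA libraries and 0, 0 and 2 reads in shControl 1, 2 and 3, and 0 reads in all 3 BTLAlow libraries and 0, 0 and 2 in BTLAhigh 1, 2 and 3, so its reads cannot check the labels. The epithelial keratins KRT8 and KRT18 took 0.582% to 1.47% of a knockdown library and 1.2% to 2.08% of a sort library, whereas the summed level of 6 endothelial markers stayed between 0.194 and 0.758 RPM, of 5 lymphocyte markers between 0.238 and 1.19 RPM and of 4 fibroblast markers between 1.23 and 3.09 RPM. ShControl 1 stood farthest from the other knockdown libraries on the first principal component. Differences were fitted across all genes with limma on log2(RPM + 0.1), a scale that understates the fold change of low genes, and a gene was called at an adjusted p under 0.05. In the knockdown 0.782% of 16630 genes tested were called higher and 0.686% lower in shBTLA, and in the sort 19.1% of 16911 were called higher and 6.25% lower in BTLAlow, 3238 and 1057 genes. The sort split depended on the scaling. With libraries brought to the same median it was 1580 higher and 3090 lower, each log2 difference moving by a median of -0.26.

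Set per kilobase of exon, EPHA2 was the most abundant of the 10 members in all 4 groups and EPHA1 was at or near 0. EPHA2, a receptor common in epithelia and carcinomas, averaged 39.5 ± 5.23 RPM per kilobase in shBTLA and 42.7 ± 9.38 in shControl, and 30.7 ± 3.45 in BTLAlow and 40.9 ± 5.39 in BTLAhigh (SD, n = 3 each). EPHB2, EPHB4 and the ligand EFNA1 followed, then EFNA4, EFNB1 and EFNB2, with EPHB3 and EPHA4 under 1 RPM per kilobase in every library. The order of the upper genes differed by group. EPHB2 was the second member in shBTLA (12.1 ± 0.249), in shControl (19.6 ± 1.16) and in BTLAhigh (17.3 ± 1.02), and the fifth in BTLAlow (8.59 ± 0.172), below EPHB4, EFNA1 and EFNA4 (SD, n = 3 each). Neighbours whose ranges overlapped were EPHB4 and EFNA1 in shBTLA, BTLAlow and BTLAhigh, and EFNA4 with EPHB2 and EPHA4 with EPHB3 in BTLAlow, so their order is not set by these libraries. The lengths are the merged exons of each gene in an annotation of another build, and a transcript in use can be shorter.

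**Figure D1:**
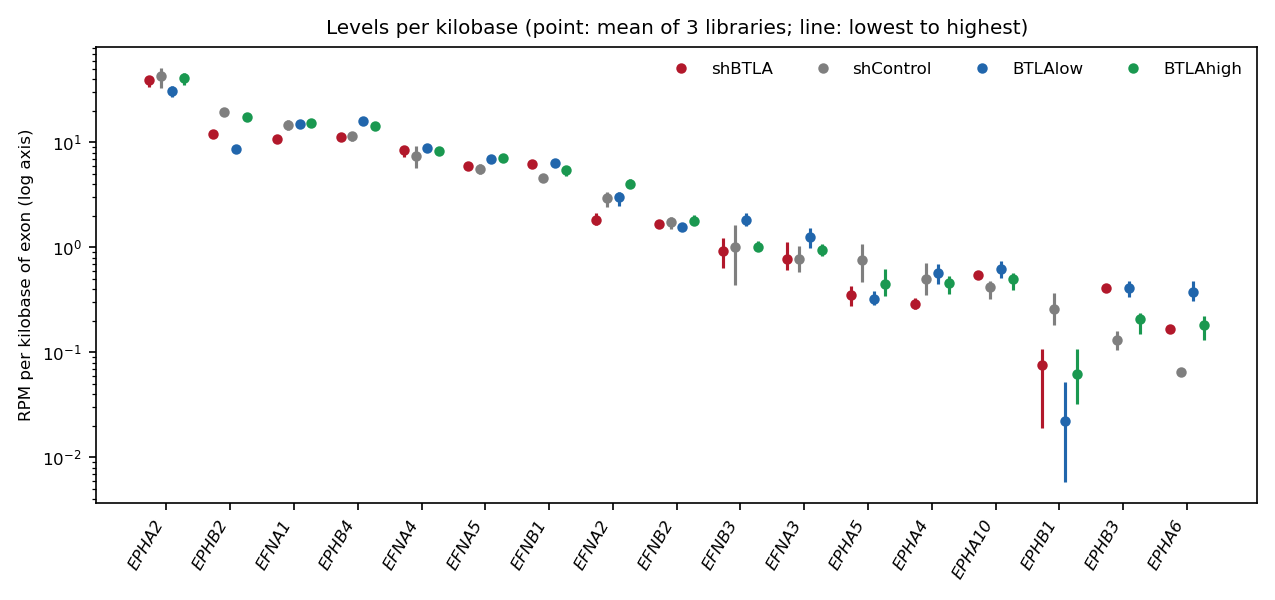
Level per kilobase of exon on a log axis for the Eph receptor and ephrin genes with reads in every library, with the mean of 3 libraries as a point and the lowest to highest library as a line. EPHA2 was highest in each group, and EPHB2 was at 8.59 RPM per kilobase in BTLAlow against 17.3 in BTLAhigh.

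EPHB2 was lower in shBTLA than in shControl cells and lower in BTLAlow than in BTLAhigh cells. EPHB2 encodes a receptor that binds ephrin-B ligands and that positions cells along the crypts of the intestine, and its gene spans 22710839 to 22921500 of chromosome 1 in GRCh38. It was at 148, 152 and 155 RPM in shBTLA 1, 2 and 3, against 262, 235 and 240 RPM in shControl 1, 2 and 3. All shBTLA libraries lay below all shControl libraries, with a log2 difference of -0.70 (standard error 0.09), or 0.617 times the shControl level. In the sort, EPHB2 was at 105, 109 and 109 RPM in BTLAlow 1, 2 and 3, against 227, 202 and 220 RPM in BTLAhigh 1, 2 and 3. The groups again did not overlap, and the log2 difference was -1.01 (standard error 0.08), 0.497 times the BTLAhigh level. In RNA from many cells, fewer cells that express a gene and less RNA per cell cannot be told apart. The sort value was called under each of the 13 other settings tried, with log2 differences of -1.27 to -0.97. The knockdown value was not called once shBTLA 1, 2 or 3 or shControl 3 was left out, although its log2 difference stayed between -0.73 and -0.65, and it was -0.65 and called without shControl 1.

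EPHB3, another ephrin-B receptor with overlapping roles in gut and palate, differed in the opposite direction. It spans 184561785 to 184582408 of chromosome 3 in GRCh38 and no other annotated gene overlaps it. It had 71, 66 and 80 reads in shBTLA 1, 2 and 3, against 14, 18 and 28 reads in shControl 1, 2 and 3, which is 1.87, 1.85 and 1.92 RPM against 0.481, 0.583 and 0.721 RPM. Every shBTLA library was above every shControl library, with a log2 difference of 1.52 (standard error 0.25). In the sort it had 56, 90 and 50 reads in BTLAlow 1, 2 and 3, against 24, 46 and 34 reads in BTLAhigh 1, 2 and 3, or 1.91, 2.17 and 1.54 RPM against 0.68, 1.08 and 1.07 RPM. The groups did not overlap and the log2 difference was 0.93 (standard error 0.26). These are low counts. The call was lost without a filter on low genes in both comparisons. In the knockdown it was also lost without shBTLA 1, 2 or 3 or shControl 3 (log2 differences of 0.73 to 1.65 over 13 settings, 1.40 without shControl 1). In the sort it was also lost without BTLAlow 1, 2 or 3 or BTLAhigh 1, and with libraries at the same median. The replicate number as a block lost the sort call too (0.49 to 1.05 over 13 settings).

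EPHB4, the receptor that marks veins and binds ephrin-B2, took the remaining large part of the EphB level. It was at 75.7, 70.5 and 69.2 RPM in shBTLA 1, 2 and 3, against 79.1, 67.0 and 74.1 RPM in shControl 1, 2 and 3. These ranges overlapped, with a log2 difference of -0.03 (standard error 0.11) that turned positive, 0.01, with libraries at the same median. In BTLAlow and BTLAhigh cells it was at 105, 102 and 103 RPM in BTLAlow 1, 2 and 3, against 88.6, 88.1 and 99.1 RPM in BTLAhigh 1, 2 and 3. Here the BTLAlow libraries lay above the BTLAhigh libraries, with a log2 difference of 0.17 (standard error 0.08) that was not called and that turned to -0.09 with libraries at the same median. SLC12A9 overlaps EPHB4 on the other strand, and the sources do not say whether reads were counted by strand.

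Within the EphB class the balance between EPHB2 and EPHB4 differed between groups, a quantity that does not depend on the scaling of libraries. Per kilobase, EPHB2 was 48.9%, 51.4% and 52.1% of the summed EphB receptors in shBTLA 1, 2 and 3, against 62.2%, 63.6% and 61.7% in shControl 1, 2 and 3. In sorted cells the share was 33.3%, 34.7% and 34.5% in BTLAlow 1, 2 and 3, against 56.2%, 53.4% and 52.8% in BTLAhigh 1, 2 and 3. EPHB4 was accordingly 63.7% ± 0.786 of the class in BTLAlow and 44.7% ± 1.78 in BTLAhigh (SD, n = 3 each). By this measure the receptor with the larger share was EPHB4 in BTLAlow and EPHB2 in BTLAhigh. Which receptor leads depends on the merged exon lengths used, 12516 bases for EPHB2 and 6437 for EPHB4. In RPM, without lengths, EPHB2 averaged 107.5 and EPHB4 103.1 in BTLAlow. In the knockdown EPHB4 was 46.7% ± 1.62 in shBTLA and 36.2% ± 0.903 in shControl (SD, n = 3 each). The summed EphB level was 23.8 ± 0.33 RPM per kilobase in shBTLA and 31.5 ± 2.11 in shControl, and 25.2 ± 0.0646 in BTLAlow and 31.9 ± 1.6 in BTLAhigh (SD, n = 3 each), with no overlap in either comparison. EPHB3 stayed a small part of it, at 1.74% ± 0.0426 in shBTLA and 0.421% ± 0.0994 in shControl and at 1.64% ± 0.28 in BTLAlow and 0.656% ± 0.169 in BTLAhigh (SD, n = 3 each).

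**Figure D2:**
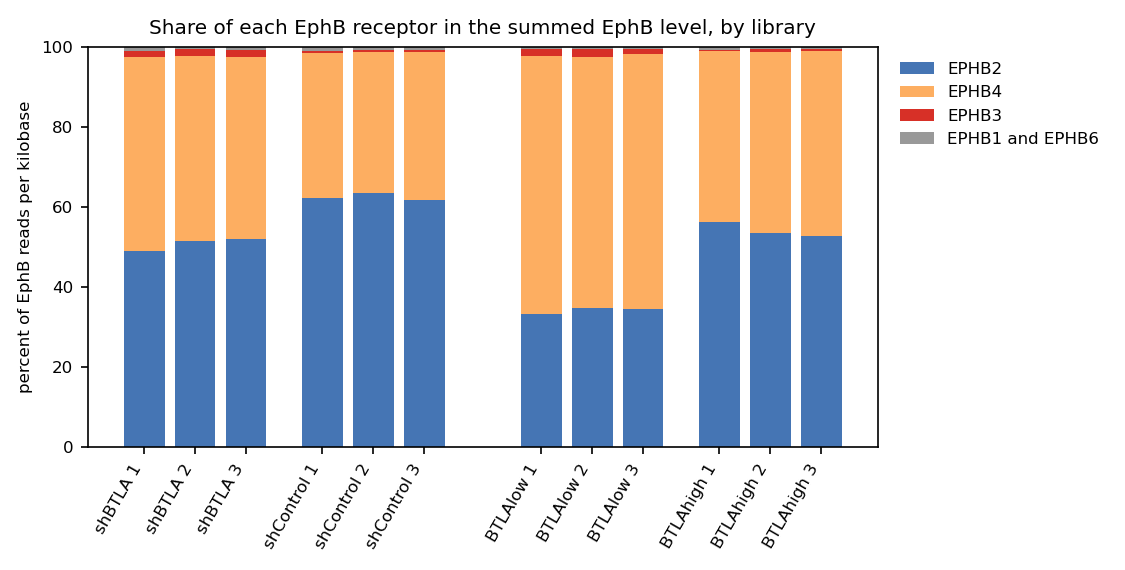
Share of each EphB receptor, in percent of the summed EphB reads per kilobase, as a stacked bar for each of the 12 libraries. EPHB2 took 48.9% to 52.1% in shBTLA against 61.7% to 63.6% in shControl, and 33.3% to 34.7% in BTLAlow against 52.8% to 56.2% in BTLAhigh.

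Among the EphA receptors, EPHA2 differed in the sort. It was at 113, 142 and 127 RPM in BTLAlow 1, 2 and 3, against 176, 145 and 188 RPM in BTLAhigh 1, 2 and 3. The groups did not overlap, although BTLAlow 2 and BTLAhigh 2 lay close together, and the log2 difference was -0.41 (standard error 0.12), 0.751 times the BTLAhigh level. The difference ranged from -0.67 to -0.33 over the 13 other settings. It was not called without BTLAlow 1, BTLAlow 3 or BTLAhigh 1, on the deposited RPKM or with the replicate number as a block. In the knockdown EPHA2 was at 179, 139 and 173 RPM in shBTLA 1, 2 and 3, against 213, 136 and 181 RPM in shControl 1, 2 and 3, and both groups covered much of the same range (log2 difference -0.10, standard error 0.18). Libraries with the number 2 were lowest in both groups. Without shControl 1 the difference was 0.05.

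EPHA4, a receptor that binds both ephrin-A and ephrin-B ligands, was low throughout. It was at 2.5, 1.96 and 2.01 RPM in shBTLA 1, 2 and 3, against 5.32, 2.66 and 3.32 RPM in shControl 1, 2 and 3. No library overlapped, but shControl 1 was well above the rest, and the log2 difference of -0.73 (standard error 0.28) was -0.45 without it. In the sort the groups overlapped, with 4.39, 5.21 and 3.36 RPM in BTLAlow 1, 2 and 3, against 3.71, 2.73 and 4.01 RPM in BTLAhigh 1, 2 and 3. EPHA1, the first Eph receptor to be cloned, had 0, 2 and 0 reads in shBTLA 1, 2 and 3, against 1, 0 and 1 reads in shControl 1, 2 and 3. It had 0, 0 and 2 reads in BTLAlow 1, 2 and 3, against 0 reads in every BTLAhigh library, so no difference in EPHA1 was detectable at this depth. It was the member that did not reach the minimum of 10 reads in 3 libraries.

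**Figure D3:**
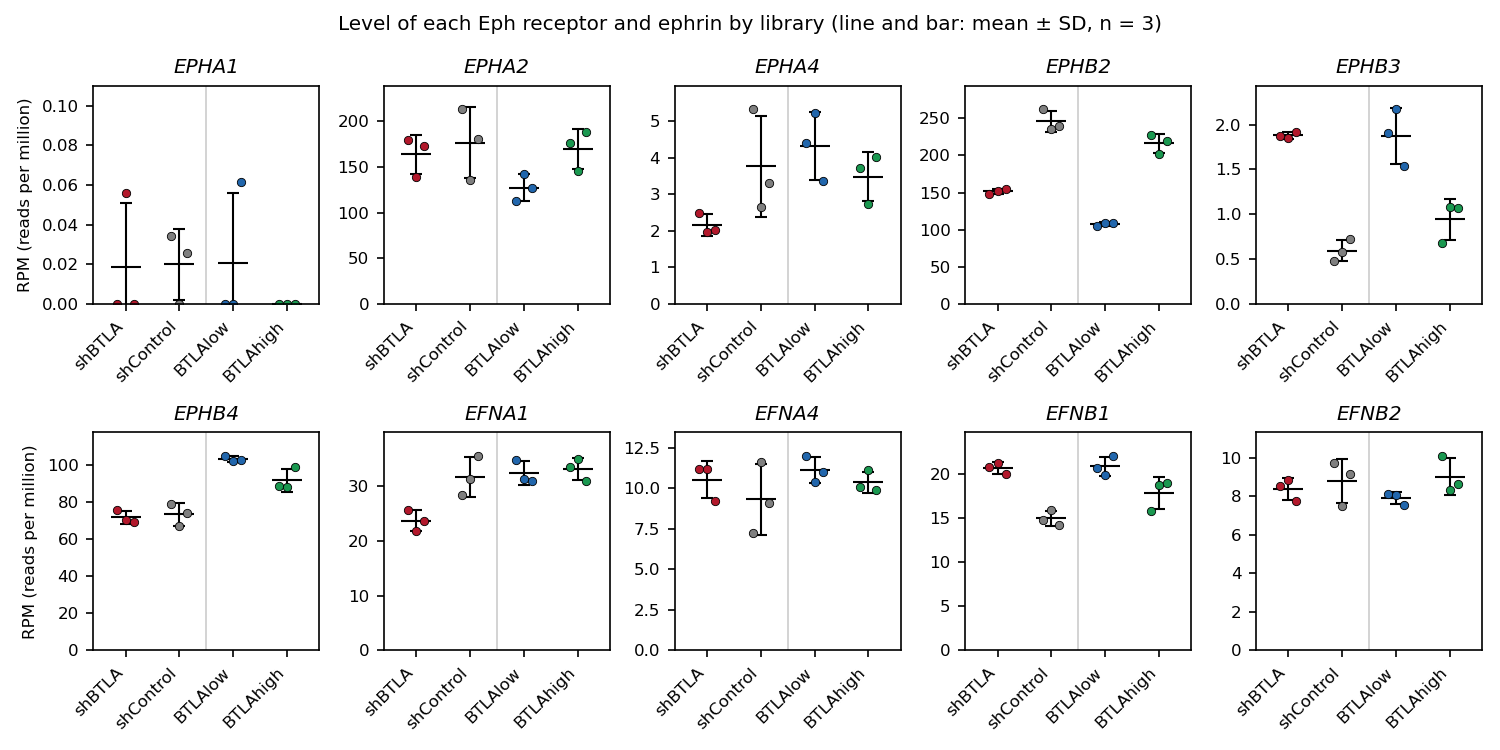
RPM of each of the 10 members in every library, with points for libraries and a line and bar for the mean ± SD of 3 libraries, shBTLA and shControl left of the gray line and BTLAlow and BTLAhigh right of it. EPHB2 and EPHB3 separated the groups in both comparisons, in opposite directions. EFNB1 did not overlap in either comparison too, but was called in neither.

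EFNB1, an ephrin-B ligand encoded on the X chromosome, was at 20.8, 21.3 and 20 RPM in shBTLA 1, 2 and 3, against 14.8, 15.9 and 14.3 RPM in shControl 1, 2 and 3. All shBTLA libraries were higher, with a log2 difference of 0.46 (standard error 0.12) that was not called. In the sort it was at 20.7, 19.9 and 22.1 RPM in BTLAlow 1, 2 and 3, against 15.8, 18.8 and 19 RPM in BTLAhigh 1, 2 and 3. The groups did not overlap either, but the log2 difference of 0.23 (standard error 0.11) was not called and turned to -0.03 with libraries at the same median. EFNB2, the arterial ligand of EPHB4, was at 8.13, 8.05 and 7.57 RPM in BTLAlow 1, 2 and 3, against 10.1, 8.31 and 8.66 RPM in BTLAhigh 1, 2 and 3. BTLAlow was lower without overlap (log2 difference -0.18, standard error 0.13), not called except with libraries at the same median (-0.44). In the knockdown the EFNB2 libraries overlapped, at 8.55, 8.83 and 7.76 RPM in shBTLA 1, 2 and 3, against 9.75, 7.52 and 9.15 RPM in shControl 1, 2 and 3.

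EFNA1, the ligand of EPHA2 first found as a gene induced by tumor necrosis factor, was at 25.6, 21.8 and 23.6 RPM in shBTLA 1, 2 and 3, against 28.3, 31.3 and 35.5 RPM in shControl 1, 2 and 3. The shBTLA libraries lay below the shControl libraries, with a log2 difference of -0.42 (standard error 0.13) that was not called. In the sort EFNA1 was at 34.8, 31.2 and 30.9 RPM in BTLAlow 1, 2 and 3, against 33.4, 34.9 and 30.9 RPM in BTLAhigh 1, 2 and 3, with a log2 difference of -0.03 (standard error 0.10). EFNA4, another lipid-anchored ligand, overlapped between groups in both comparisons, at 9.22 to 11.2 RPM in shBTLA against 7.24 to 11.6 RPM in shControl and at 10.4 to 12 RPM in BTLAlow against 9.89 to 11.1 RPM in BTLAhigh. Its log2 differences were 0.20 (standard error 0.20) and 0.10 (standard error 0.12), the second turning to -0.16 with libraries at the same median. EFNA4 and EFNA3 both overlap AL691442.1, a coding gene model on the same strand, and could share reads with it.

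Counted over the members, 9 of 10 were tested in each comparison. In the knockdown 1 was called higher (EPHB3) and 1 lower (EPHB2), beside 0.782% and 0.686% of all genes. 2 members had shBTLA above shControl without overlap, EPHB3 and EFNB1, and 3 below, EPHA4, EPHB2 and EFNA1, beside 9.14% and 8.77% of all genes tested. In the sort 1 was called higher (EPHB3) and 2 lower (EPHB2 and EPHA2), beside 19.1% and 6.25% of all genes. There, 3 members were above without overlap, EPHB3, EPHB4 and EFNB1, and 3 below, EPHA2, EPHB2 and EFNB2, beside 30.4% and 11.4%. The median log2 difference of the tested members was -0.06 in the knockdown and 0.10 in the sort, beside -0.02 and 0.18 over all genes tested. Since the members were chosen on these comparisons, nothing is read from these counts.

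**Figure D4:**
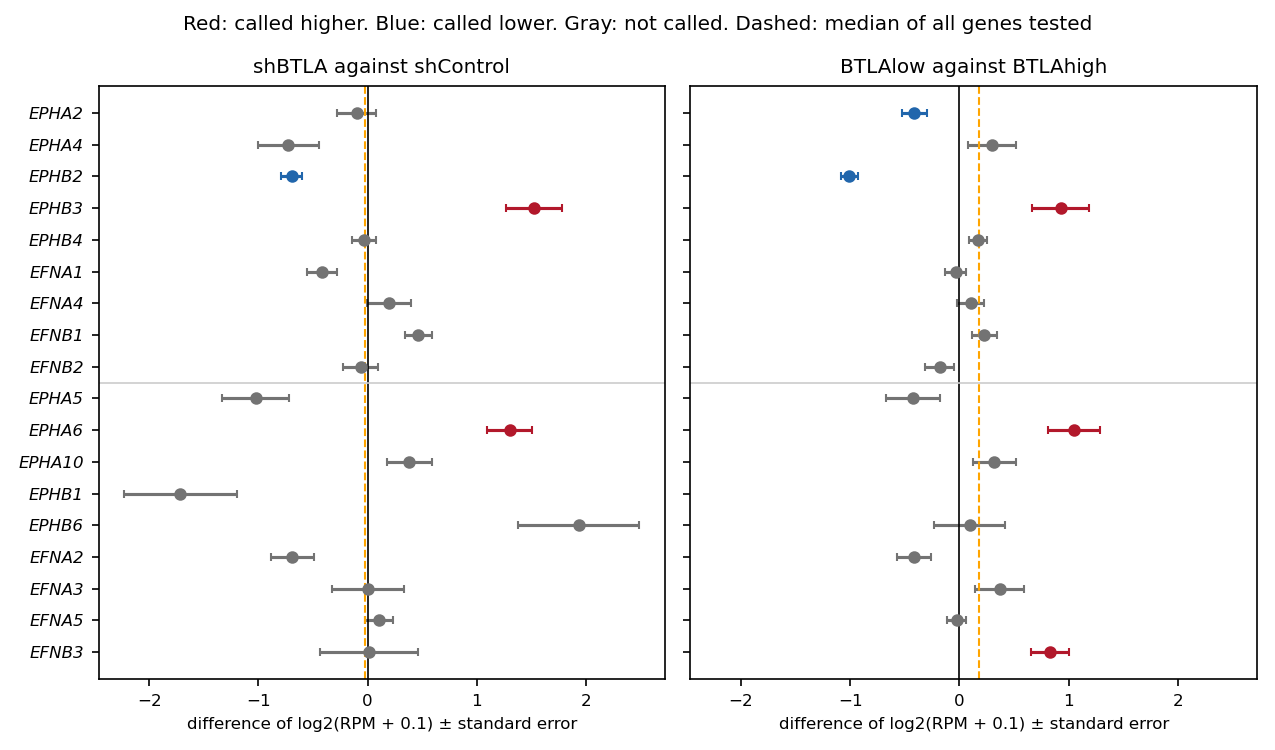
Difference of log2(RPM + 0.1) with its standard error for each Eph receptor and ephrin gene that was tested, in shBTLA against shControl on the left and BTLAlow against BTLAhigh on the right, members above the gray line and the other genes of the family under it. In the sort the dashed median of all genes lies at 0.18. There the members EPHB4, EFNA4 and EFNB1 and, of the other genes, EPHB6 change sign when libraries are brought to the same median.

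The other 12 genes of the family were not members, and those that passed the filter were tested. They are what was left once the members had been chosen on these libraries, so their p-values are not free of that choice. EPHA6, a receptor best known from the nervous system, rose in both comparisons. It was at 3.08, 2.89 and 3.19 RPM in shBTLA 1, 2 and 3, against 1.27, 1.17 and 1.11 RPM in shControl 1, 2 and 3 (log2 difference 1.30, standard error 0.20, limma adjusted p = 0.0256). In the sort it was at 5.68, 8.8 and 6.4 RPM in BTLAlow 1, 2 and 3, against 3.52, 2.38 and 4.11 RPM in BTLAhigh 1, 2 and 3 (log2 difference 1.05, standard error 0.24, limma adjusted p = 0.0117). The groups did not overlap in either, but the knockdown call was lost without a filter on low genes and without shBTLA 1, 2 or 3 or shControl 3 (adjusted p of 0.012 to 0.352 over the alternatives), and both calls on the deposited RPKM. EFNB3, the third transmembrane ligand, rose in the sort, with 5.51, 6.85 and 5.17 RPM in BTLAlow 1, 2 and 3, against 3.06, 2.97 and 3.67 RPM in BTLAhigh 1, 2 and 3 (log2 difference 0.83, standard error 0.17, limma adjusted p = 0.00844). It was called under each of the 13 other settings of the fit, but its difference is below the log2 fold change of 1 that the study's call rule asks for. In the knockdown it was at 2.96 ± 0.982 RPM in shBTLA and 3.23 ± 1.94 in shControl (SD, n = 3 each, limma adjusted p = 0.997).

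In the knockdown, 9 of these 12 genes were tested, and limma called 1 higher and 0 lower, beside 0.782% and 0.686% of all genes. An unadjusted p under 0.05 was found for 2 higher (EPHA6 and EPHB6) and 3 lower genes, and voom called 1 and 0. The p of EPHB6 is counted there but not read, for the reason given below. EPHA5, a receptor of the nervous system, was at 4.21, 2.72 and 3.4 RPM in shBTLA 1, 2 and 3, against 10.5, 4.63 and 7.01 RPM in shControl 1, 2 and 3 (log2 difference -1.02, limma adjusted p = 0.22). EPHB1, a receptor of ephrin-B ligands, was at 0.632, 0.112 and 0.599 RPM in shBTLA 1, 2 and 3, against 2.13, 1.07 and 1.37 RPM in shControl 1, 2 and 3 (log2 difference -1.71, limma adjusted p = 0.22). EPHB6, a receptor whose kinase domain is inactive, had 20, 20 and 16 reads in shBTLA 1, 2 and 3, against 0, 8 and 0 reads in shControl 1, 2 and 3, and in the sort 22, 26 and 12 reads in BTLAlow 1, 2 and 3, against 16, 26 and 16 reads in BTLAhigh 1, 2 and 3. In the knockdown EPHB6 reached 10 reads in shBTLA libraries alone and so passed the filter through the group where it was high, and its p is not read. These 3 genes did not overlap between the knockdown groups, and none was called with all libraries. Without shControl 2, EPHA5 was called (adjusted p of 0.0158 to 0.689 over the alternatives). EPHB6 was called there too, but with 0 reads in each shControl library left, so that call is not read either.

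EFNA2, a lipid-anchored ephrin-A ligand, had 5.16, 4.09 and 3.98 RPM in shBTLA 1, 2 and 3, against 8.14, 7.58 and 5.85 RPM in shControl 1, 2 and 3 (log2 difference -0.69, limma adjusted p = 0.197). In the sort it had 8.2, 7.47 and 6.07 RPM in BTLAlow 1, 2 and 3, against 9.13, 9.04 and 10.8 RPM in BTLAhigh 1, 2 and 3 (log2 difference -0.41, limma adjusted p = 0.0776). It was lower without overlap in both and called in neither. EFNA5, a lipid-anchored ligand, at 34.2 ± 2.18 RPM in shBTLA and 31.8 ± 3.68 in shControl and at 39.7 ± 0.807 RPM in BTLAlow and 40.4 ± 0.838 in BTLAhigh (SD, n = 3 each), overlapped in both comparisons. EPHA10, whose kinase domain is inactive too, and EFNA3, a lipid-anchored ligand, were called in neither. EPHA10 was higher without overlap in the knockdown, at 4.46 ± 0.161 RPM in shBTLA and 3.45 ± 0.69 in shControl. It overlapped in the sort, at 5.11 ± 0.924 RPM in BTLAlow and 4.08 ± 0.746 in BTLAhigh. EFNA3 overlapped in both. It was at 1.515 ± 0.582 RPM in shBTLA and 1.494 ± 0.458 in shControl. In the sort it was at 2.43 ± 0.536 RPM in BTLAlow and 1.84 ± 0.23 in BTLAhigh (SD, n = 3 each, for both genes).

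In the sort, 8 of the 12 were tested, and limma called 2 higher and 0 lower, shares of 25% and 0% beside 19.1% and 6.25% of all genes, while 2 higher and 1 lower had an unadjusted p under 0.05 and voom called 2 and 0. With libraries at the same median 3 were called lower, EPHA5, EFNA2 and EFNA5. EPHA3, EPHA7 and EPHA8 failed the filter in both comparisons and EPHB1 in the sort. EPHA3 was at 0.0479 to 0.211 RPM in shBTLA and 0 to 0.137 RPM in shControl and at 0.241 to 0.749 RPM in BTLAlow and 0.113 to 0.253 RPM in BTLAhigh (exact permutation test, two-sided p = 0.6 and 0.2). EPHA7 had at most 2 reads in any library (exact permutation test, two-sided p = 0.4 and 1), reads that rest on a gene length found by search. EPHA8 was at 0 to 0.112 RPM in shBTLA and 0.0515 to 0.343 RPM in shControl and at 0 to 0.0681 RPM in BTLAlow and 0.0567 to 0.188 RPM in BTLAhigh (exact permutation test, two-sided p = 0.4 and 0.3). EPHB1 was at 0.034 to 0.308 RPM in BTLAlow and 0.188 to 0.624 RPM in BTLAhigh (exact permutation test, two-sided p = 0.3). For 3 libraries against 3 such a test cannot go below 0.1.

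Downstream of the receptors, a list of 55 genes of Eph signaling was read, of which 53 were tested in each comparison. In the knockdown 1 was called higher and 1 lower, 1.89% each way beside 0.782% and 0.686% of all genes, and the median log2 difference of the list was -0.13, beside -0.02 over all genes. VAV3, an exchange factor that activates Rac when recruited to Eph receptors, rose to 10.1 ± 1.64 RPM in shBTLA, against 3.85 ± 1.38 in shControl (SD, n = 3 each, log2 difference 1.41, limma adjusted p = 0.0426). GRB10, an SH2 adaptor that can bind EPHB1, fell to 82 ± 3.73 RPM in shBTLA, against 141.6 ± 20.6 in shControl (SD, n = 3 each, log2 difference -0.78, limma adjusted p = 0.027). Both calls were lost without shBTLA 1, 2 or 3 or shControl 3 and on the deposited RPKM.

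In the sort 12 of the 53 were called higher and 2 lower, shares of 22.6% and 3.77% beside 19.1% and 6.25% of all genes, and the median log2 difference was 0.25 beside 0.18. With libraries at the same median the counts were 5 higher and 7 lower, and with 1 library left out 4 (without BTLAhigh 1) to 23 (without BTLAhigh 3) were higher. VAV3 again rose, to 21.2 ± 3.95 RPM in BTLAlow, against 9.92 ± 2.13 in BTLAhigh (SD, n = 3 each, as for the genes that follow, log2 difference 1.09, limma adjusted p = 0.00254), and GRB10 again fell, to 72.2 ± 3.83 RPM in BTLAlow, against 105.1 ± 5.4 in BTLAhigh (log2 difference -0.54, limma adjusted p = 0.00185). GRB7, an SH2 adaptor of Eph and ERBB receptors, had the smallest p and was higher in BTLAlow, at 76.3 ± 6.44 RPM in BTLAlow and 42.2 ± 5.39 in BTLAhigh (log2 difference 0.86, limma adjusted p = 0.000844). PIK3R1, a regulatory subunit of PI3K, was higher in BTLAlow by 1.05 on the log2 scale (limma adjusted p = 0.00472) and CBLB, a ubiquitin ligase that can direct receptors to degradation, by 0.66 (limma adjusted p = 0.00858). INPPL1, which encodes the phosphatase SHIP2 that binds EPHA2, was higher too, at 184.7 ± 14.9 RPM in BTLAlow and 130.3 ± 17.4 in BTLAhigh (log2 difference 0.51, limma adjusted p = 0.00859), and was not called without BTLAhigh 1. WASL, the actin regulator N-WASP, was higher in BTLAlow by 0.42 on the log2 scale (limma adjusted p = 0.0186). The WASL call was lost with libraries at the same median, with the replicate number as a block and without BTLAlow 2 or 3 or BTLAhigh 1 or 2.

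Of 5 epithelial markers, 4 were called higher in BTLAlow, beside 19.1% of all genes tested, KRT19 not being tested there. KRT8 and KRT18 differed by 0.57 and 0.50 on the log2 scale in the sort, where median scaling moved differences by a median of -0.26. None was called in the knockdown, where limma adjusted p was 0.0797 for KRT8, 0.0993 for KRT18 and 0.967 for KRT19. CDH1, which encodes E-cadherin, was at 22.2 ± 1.81 RPM in shBTLA and 12 ± 3.54 in shControl (limma adjusted p = 0.0971), and at 63.8 ± 6.18 RPM in BTLAlow and 20.4 ± 3.82 in BTLAhigh (limma adjusted p = 0.000119). EPCAM, an epithelial adhesion molecule, was at 3.43 ± 0.29 RPM in shBTLA and 3.14 ± 0.545 in shControl (limma adjusted p = 0.863), and at 7.09 ± 0.453 RPM in BTLAlow and 2.78 ± 0.285 in BTLAhigh (limma adjusted p = 0.000492, SD and n = 3 for each group). Their part in the Eph and ephrin values was not tested.

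Likeness of pattern between members was taken across all 12 libraries, after the mean of each experiment was taken off. It is a description over libraries that share depth and processing. The difference between the groups of an experiment was kept, so r largely repeats the group differences given above. The pairs of members named are those with the largest r in size. EPHB2 and EPHB3 ran in opposite directions (Pearson r = -0.886 over 12 libraries), EPHB3 and EFNB1 in the same direction (r = 0.907) and EPHB2 and EFNB1 in opposite directions (r = -0.82). Of 16160 genes tested in both experiments, those most like EPHB2, the receptor with the most reads (76432 over the 12 libraries), were FLNA, an actin crosslinker (r = 0.992), LMNB2, a nuclear lamin (r = 0.988), and MARCHF4, a membrane-bound ubiquitin ligase (r = 0.987), whose symbol had been turned into a date in the tables and was read from its gene ID. For EFNA1, the ligand among the members with the most reads (12862), they were MARCKSL1 (r = 0.938), ATP6V0D1 (r = 0.928) and LIMS2 (r = 0.917).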

How the data were processed

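RNA of A549 cells was sequenced in 12 libraries, 3 in each of 4 groups taken from the labels. Per the labels, the authors used Trim Galore 0.6.6 for trimming, STAR for alignment to hg38, featureCounts for counting per gene and edgeR for testing, and they deposited RPKM values per library. The authors' tables of their own comparisons hold a log2 fold change, mean log2 CPM, a likelihood ratio score, a p-value and an FDR. Only the mean log2 CPM was used, as a check of the recovered reads. How strand and multi-mapping reads were handled is left unstated by the sources used here.

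The RPKM the authors deposited were divided by the length of a different gene, so that levels of different genes cannot be compared in them. Multiplying each value by that length gave whole reads for 58797 of 60617 genes (100% of values above 0 within 0.02 of a read). For 1056 genes, EPHA7 among them, a length was searched, which was right for 170 of 200 trial genes, and 764 were 0 throughout. Of values of 1 to 10 reads 61.6% were even, so some read pairs may have been counted by mate. Reads were divided by library totals (RPM). Levels per kilobase use merged exon lengths of GENCODE for GRCh37, and coordinates are those of the files on GRCh38.

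The 2 comparisons were fitted separately in limma 3.58.1 under R 4.3.3 (eBayes, trend) on log2(RPM + 0.1). A gene was tested where 3 or more of 6 libraries held at least 10 of its reads, Benjamini-Hochberg adjustment ran over all genes tested, and the script was tested on simulated data. Tables used Python 3.11.15, numpy 2.4.6 and pandas 2.3.3. Alternatives were no filter, a minimum of 30 reads, a pseudocount of 1, median scaling, the deposited RPKM as they stand, voom, the replicate number as a block, the study's call rule and leaving out each library. The members and lists were chosen with earlier results of these data known. Named were all members, the other 12 family genes, up to 8 called signaling genes per comparison with the smallest p (1 of them, lower in the sort, is not reported here), and the 3 genes most like the receptor and the ligand with the most reads.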

Additional observations from a re-analysis of the deposited data

How the results depend on the processing

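No called value of the family genes or of the signaling genes named above changed sign under the alternatives run. Most counts moved, and the causes were not tested. In the knockdown, fits without a replicate called 22 to 291 genes higher and 3 to 263 lower (130 and 114 with all libraries), 0 to 1 members higher and 0 to 1 lower, 0 to 2 other family genes higher and 0 to 1 lower, and 0 to 2 signaling genes higher and 0 to 1 lower. The low counts came without shBTLA 1, 2 or 3 or shControl 3, the high ones without shControl 1 or 2. Without shControl 2 the other family genes called higher included EPHB6, whose p is not read. In the sort they called 1578 to 4603 genes higher and 418 to 1382 lower (lowest without BTLAhigh 1, and 1618 and 510 without BTLAlow 3), 0 to 1 members higher and 1 to 2 lower, and 4 to 23 signaling genes higher and 2 to 3 lower.

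With no filter, 0 members were called higher in either comparison and 0 other family genes higher in the knockdown. On the deposited RPKM as they stand, 70 genes were called lower in the knockdown, with 0 other family genes and 0 signaling genes in either direction there, and in the sort 1 member was lower and 1 other family gene higher. After scaling libraries to one median, the sort gave 1580 genes higher and 3090 lower, 0 members higher, 3 other family genes lower, and 5 signaling genes higher and 7 lower. The study's rule asks for an unadjusted p up to 0.05 and a log2 fold change of 1 or more in size. Here its cut-offs were put on the limma fits and not on the study's edgeR test, so the counts are not those of the study. Under it the knockdown gave 290 genes higher and 172 lower. It gave 0 members lower, 2 other family genes higher and 2 lower, and 0 signaling genes lower. The 2 higher family genes were EPHA6 and EPHB6, and the p of EPHB6 is not read. In the sort that rule gave 1188 and 222 genes, 0 members higher and 1 lower, 1 other family gene higher, and 2 signaling genes higher and 0 lower. A minimum of 30 reads, a pseudocount of 1 and voom kept each of these counts within 1.5 times of its value.

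With the replicate block, 260 genes were called higher and 285 lower in the knockdown, with 2 other family genes lower, EPHA5 and EPHB1. In the sort it called 1726 higher and 461 lower, with 0 members higher, 1 lower, and 5 signaling genes higher and 1 lower. EPHB3, EPHA2 and WASL were among the sort calls it lost. Knockdown residuals of libraries sharing number 1, 2 or 3 correlated at 0.218, 0.406 and -0.039. Knockdown libraries with different numbers gave -0.402 to 0.256. For sorted cells the same-number values were 0.068, -0.373 and -0.165, against -0.291 to 0.41 for different numbers. With 3 libraries a group, these values cannot decide whether the numbers pair the libraries.

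Depth limits EPHA1, EPHA3, EPHA7, EPHA8 and, in the sort, EPHB1, which did not reach 10 reads in 3 libraries. With 3 libraries a group, a difference that was not called is not shown to be absent.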
